A study of Homo sapiens with 16 samples.

Results

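Peaks outside the assembled chromosomes were collected from 12 ChIP-seq peak lists of 3 histone H3 modifications. A peak was a member when its sequence name was none of chromosomes 1 to 22, X and Y of hg19. Of 193384 peaks in all lists, 628 met this rule, 0.325% of the total. They lay on 36 contigs, 13 of them assigned to a chromosome without a position (names ending in _random, 332 peaks) and 23 assigned to none (names starting with chrUn, 296 peaks). The term contig is used below for both kinds. No list held a peak on an alternative haplotype, although such names fell under the rule.

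The lists came from MDA-MB-231, a metastatic breast carcinoma line, and MCF-10A, a non-tumorigenic line of breast epithelium. Both were assayed as subconfluent cultures with no treatment stated, and the medium named for MCF-10A held EGF, insulin, cholera toxin and hydrocortisone, so medium and line cannot be told apart. Each line is 1 established line, and each mark had 2 replicates per line that the labels call biological. The marks were H3K4me3, H3K27me3 and H3K9me2, and 4 input libraries without a peak list of their own were not analysed here. The lists hold no read counts, so the depth behind a peak is unknown, and a shorter list cannot be told apart from a weaker enrichment.

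Contigs of this kind are pieces of sequence that assemblers could not anchor, often because they hold repeats, satellite arrays or recent segmental duplications with near-identical copies elsewhere. Reads from such copies can match several places, so a peak on a contig may stand for copies at other positions. The treatment of such reads was not stated in the labels. H3K4me3 is a mark of promoters, H3K27me3 is the product of Polycomb complexes and accompanies repression, and H3K9me2 is typical of silenced chromatin. One contig, chrUn_gl000220, is known apart from these files to carry a copy of the ribosomal RNA gene repeat. No annotation of the contigs was used, so no other gene is named, and no contig sequence is printed.

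H3K9me2 was the mark whose lists lay on contigs to the largest share in MDA-MB-231, and H3K27me3 was the mark with the most contig peaks in MCF-10A. H3K27me3 gave 22 and 67 contig peaks in MDA-MB-231 replicates 1 and 2, against 117 and 122 in MCF-10A. H3K9me2 gave 43 and 32 peaks in MDA-MB-231 against 32 and 36 in MCF-10A. H3K4me3 gave 34 and 37 peaks in MDA-MB-231 against 39 and 47 in MCF-10A. The lines did not overlap for H3K27me3 and H3K4me3, and they did for H3K9me2. Contig peaks of H3K27me3 covered 19.0 and 65.6 kb in MDA-MB-231 and 148 and 142 kb in MCF-10A. Those of H3K9me2 covered 153 and 83.3 kb in MDA-MB-231 and 89.4 and 105 kb in MCF-10A, and those of H3K4me3 36.2 and 45.3 kb in MDA-MB-231 and 41.7 and 62.5 kb in MCF-10A. Covered bases thus separated the lines for H3K27me3 alone.

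The share of a list that lay on contigs separated the lines for all 3 marks, and not in one direction. For H3K9me2 it was 0.694% and 0.630% in MDA-MB-231 against 0.299% and 0.403% in MCF-10A, a difference of 0.311 percentage points. For H3K27me3 it was 0.259% and 0.219% in MDA-MB-231 against 0.403% and 0.420% in MCF-10A, a difference of −0.172 points. For H3K4me3 it was 0.204% and 0.228% in MDA-MB-231 against 0.250% and 0.279% in MCF-10A, a difference of −0.0482 points. H3K9me2 was therefore the only one of the marks with the higher contig share in MDA-MB-231. Its MDA-MB-231 lists were the shorter ones, 6192 and 5080 peaks long, while those of MCF-10A held 10700 and 8925. Two-sided exact permutation tests of the shares gave p = 0.333 for each mark, the smallest p that 2 against 2 libraries allow. For peak number the exact permutation p was 0.333 for H3K27me3 and H3K4me3 and 1 for H3K9me2, and for covered bases 0.333 for H3K27me3, 0.667 for H3K4me3 and 1 for H3K9me2. For H3K27me3 the mean covered bases gave a log2 ratio (MDA-MB-231 over MCF-10A) of −1.78. Leaving out MDA-MB-231 replicate 1, whose list was short at 8493 peaks, gave −1.15, and leaving out replicate 2 gave −2.93.

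**Figure D1:**
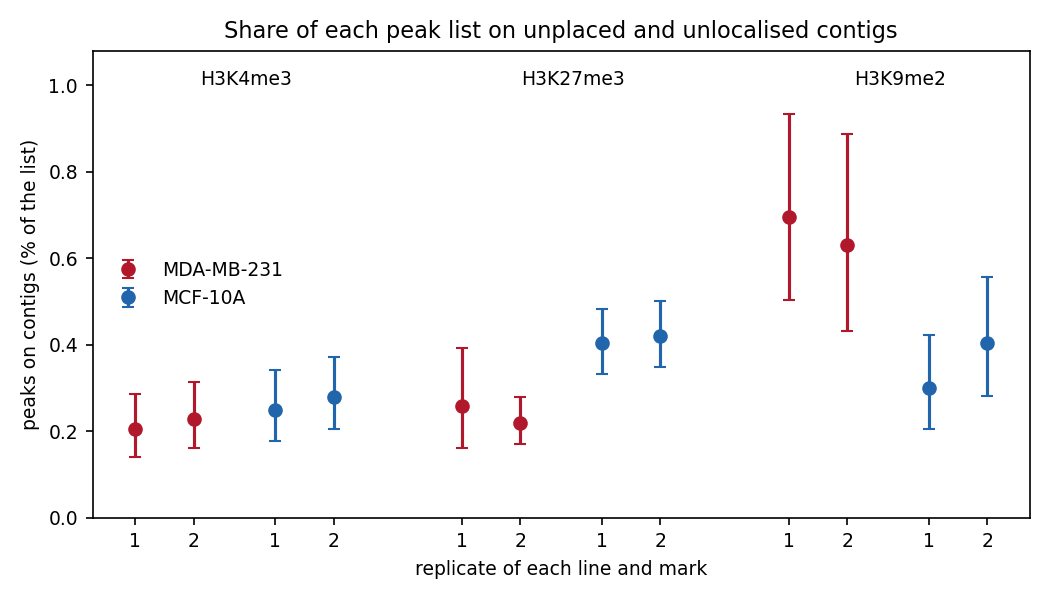
Share of each list's peaks that lie on contigs, in percent, for both replicates of MDA-MB-231 (red) and MCF-10A (blue) by mark; points are single lists and bars exact Clopper-Pearson 95% intervals, which cover counting error only. The MDA-MB-231 lists of H3K9me2, at 0.694% and 0.630%, lie above those of MCF-10A, and those of H3K27me3 and H3K4me3 lie below.

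Contig peaks were concentrated on few sequences. The 6 contigs with the most peaks held 427 of the 628, or 68.0%. They were chr1_gl000192_random with 104 peaks, chrUn_gl000220 with 102, chr17_gl000205_random with 65, chr17_gl000204_random with 61, chr7_gl000195_random with 50 and chrUn_gl000219 with 45. At the other end, 7 contigs had a peak in 1 list alone. Contig lengths were not used, so neither these counts nor the counts of marks per contig below are set against contig size. Peaks in both replicates of a line were found on 12 contigs in MDA-MB-231 and 16 in MCF-10A for H3K4me3, on 6 and 12 for H3K27me3, and on 14 and 12 for H3K9me2.

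Recurrence across marks was limited to a minority of contigs. Of the 36 contigs, 6 carried all 3 marks, counting a mark only where both replicates of at least 1 line had a peak. These were chrUn_gl000220, chr7_gl000195_random, chr1_gl000192_random, chr17_gl000205_random, chrUn_gl000228 and chrUn_gl000219. A further 8 carried 2 marks, 13 carried 1 and 9 carried none by this count. Among the 13, H3K4me3 alone was found on 6, H3K9me2 alone on 4 and H3K27me3 alone on 3. The first 3 of the 6 had a peak in all 12 lists. With both replicates of both lines required, 3 contigs carried all marks, and with a score of at least 100 there were also 3.

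**Figure D2:**
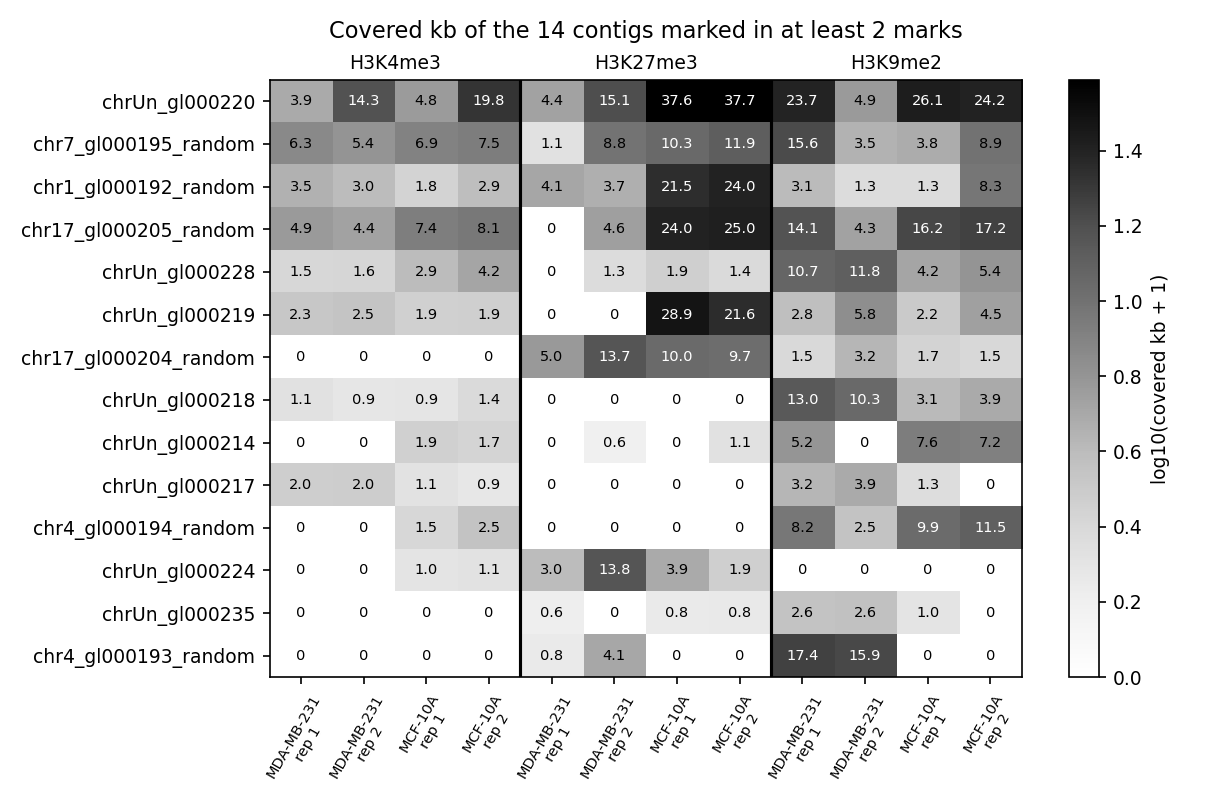
Covered kb on the 14 contigs marked in both replicates of a line for at least 2 marks (rows, ordered by the number of lists with a peak) in each of the 12 lists (columns, MDA-MB-231 left of MCF-10A within each mark); shading is log10 of covered kb plus 1 and the printed numbers are kb. On chrUn_gl000219, H3K27me3 is listed at 0 in both MDA-MB-231 lists against 28.9 and 21.6 kb in MCF-10A, while H3K4me3 is present in all 4 lists.

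Coverage per contig was then compared between the lines with limma, on covered bp per Mb of a list's coverage (bp/Mb), with each contig as 1 feature beside the 1 Mb bins of chromosomes 1 to 22 and X. Adjusted p-values are Benjamini-Hochberg values over all features of a mark with a threshold of 0.05. For H3K4me3, 3 of 18 contigs tested were higher in MDA-MB-231 and 8 were higher in MCF-10A, against 17.5% and 16.8% of all features. For H3K27me3 it was 2 and 5 of 14 contigs, against 15% and 38.1% of features. For H3K9me2 it was 5 and 2 of 18 contigs, against 11.6% and 41.9% of features. Many of these calls were contigs listed at 0 in the other line, which passed the filter (coverage in at least 2 of 4 lists) only through the line where they were high and were set against a floor without spread. That held for 1 and 4 of the H3K4me3 calls higher in MDA-MB-231 and in MCF-10A, for 1 and 4 of the H3K27me3 calls and for 3 and 2 of the H3K9me2 calls. Such contigs are described below by their coverage alone, and nothing is read from the counts of calls. In simulated data the fit recovered 0% of 2-fold, 23.9% of 4-fold and 50% of 32-fold changes of H3K27me3. For H3K9me2 it recovered 0%, 38.8% and 71.2% of them, and its share of false calls, 13.1%, was above the threshold. A contig not called for these marks may therefore still hold a large change. The median log2 ratio over all features was −1.20 for H3K27me3, −2.19 for H3K9me2 and 0.00 for H3K4me3, and single values below are not corrected for it. A contig is shorter than a bin, and its coverage can rest on 1 or a few peaks.

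H3K27me3 on chrUn_gl000219 was listed at 0 in both MDA-MB-231 lists, against 28.9 and 21.6 kb in MCF-10A replicates 1 and 2, from 16 peaks each. Most of the MCF-10A peaks lay between 116750 and 175437, and the others between 7371 and 45130. The highest-ranked H3K27me3 region found only in MCF-10A lay in the first of these groups, from 162467 to 167150, with scores of 936 and 961. These scores stood at percentiles 99.8 and 99.9 of their lists. In MCF-10A replicate 1 a peak from 168513 to 175437 scored 1549, the highest of all contig peaks of this mark. No other H3K27me3 list had a peak there, MCF-10A replicate 2 included. The same contig held 1 H3K4me3 region in all 4 lists, from 98754 to 100390 in MDA-MB-231 replicate 2 and from 98512 to 100425 in MCF-10A replicate 2. In MDA-MB-231 it also held an H3K4me3 region from 41469 to 42464, with scores of 175 and 178, that was absent from both MCF-10A lists. Both MCF-10A lists of H3K27me3 had a peak over that region, and neither MDA-MB-231 list did.

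The other contigs with H3K27me3 in both MCF-10A lists and in no MDA-MB-231 list were short in coverage. They were chr9_gl000199_random with 4.90 and 3.5 kb, chr8_gl000197_random with 2.30 and 1.73 kb and chr9_gl000201_random with 1.46 and 0.667 kb. On chrUn_gl000220 the mark was present in both lines, with 668 and 767 bp/Mb in the MDA-MB-231 lists and 1731 and 1754 bp/Mb in the MCF-10A lists (log2 ratio −1.27, SE 0.141, limma adjusted p = 0.00674). That log2 ratio is close to the median of −1.20 over all features. With coverage left unscaled the call ended (limma adjusted p = 0.0996, log2 ratio −2.05). It also ended when peaks scoring under 100 were left out (log2 ratio −4.72, limma adjusted p = 0.314).

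In the other direction, H3K27me3 on chrUn_gl000224 covered 453 and 701 bp/Mb in the MDA-MB-231 lists and 180 and 89.6 bp/Mb in the MCF-10A lists (log2 ratio 2.06, SE 0.494, limma adjusted p = 0.0396). MDA-MB-231 replicate 2 had a peak of 8559 bp there, from 10 to 8568, close to the start of the contig, and no other H3K27me3 list had one. This call was lost in 6 of 11 alternatives, among them the one without MCF-10A replicate 2 (log2 ratio 1.6, limma adjusted p = 0.113). chr4_gl000193_random had 0.768 and 4.09 kb in MDA-MB-231 and was listed at 0 in both MCF-10A lists. The MDA-MB-231 peaks of the replicates did not overlap, with 1 peak from 103863 to 104630 in replicate 1 and 5 peaks between 78365 and 91542 in replicate 2.

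H3K9me2 on chr4_gl000193_random covered 17.4 and 15.9 kb in MDA-MB-231 replicates 1 and 2 and was listed at 0 in both MCF-10A lists. Most of this was a single block from 77990 to 92424, the highest-ranked contig region of H3K9me2 found only in MDA-MB-231, with scores of 144 and 129. In replicate 1 it was called as 1 peak of 14361 bp and in replicate 2 mainly as 1 peak of 12974 bp, the widest contig peaks in these lists. The 5 H3K27me3 peaks of MDA-MB-231 replicate 2 on this contig all lay within the block. No H3K4me3 list had a peak on the contig.

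H3K9me2 was also called in both MDA-MB-231 lists and in neither MCF-10A list on chrUn_gl000232, with 10.1 and 9.48 kb, and on chr9_gl000198_random, with 5.0 and 3.69 kb. On chrUn_gl000218 it covered 846 and 968 bp/Mb in the MDA-MB-231 lists and 160 and 248 bp/Mb in the MCF-10A lists (log2 ratio 2.13, SE 0.327, limma adjusted p = 0.0138), but with equal numbers of top-scoring peaks the limma adjusted p was 0.176 (log2 ratio 4.31). On chrUn_gl000228 it covered 694 and 1105 bp/Mb in the MDA-MB-231 lists and 219 and 343 bp/Mb in the MCF-10A lists (log2 ratio 1.64, SE 0.412, limma adjusted p = 0.0483). That call was lost in 4 of 10 alternatives: without MCF-10A replicate 1 (log2 ratio 1.33, limma adjusted p = 0.0879), with equal numbers of top-scoring peaks (limma adjusted p = 0.145), with a pseudocount of 1 (limma adjusted p = 0.0524) and with no filter on low values (limma adjusted p = 0.06).

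H3K9me2 was found in both MCF-10A lists and in neither MDA-MB-231 list on 2 contigs. One was chrUn_gl000244, at 0 kb in MDA-MB-231 against 9.11 and 8.92 kb in MCF-10A. Its region from 22902 to 27459 was the highest-ranked contig region of the mark found only in MCF-10A, with scores of 337 and 202. No list of the other marks had a peak on this contig. The other, chrUn_gl000227, had 1.82 and 0.642 kb in MCF-10A.

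Contigs with H3K4me3 in both MCF-10A lists and in no MDA-MB-231 list were chr4_gl000194_random with 1.54 and 2.54 kb, chrUn_gl000214 with 1.88 and 1.68 kb, chrUn_gl000241 with 1.22 and 1.36 kb and chrUn_gl000224 with 0.994 and 1.09 kb. The region on chrUn_gl000224, from 102227 to 103315, had scores of 1041 and 1503, and that on chr4_gl000194_random from 114354 to 115238 had scores of 582 and 1350. In the other direction chrUn_gl000243 had 1 peak in each MDA-MB-231 list, of 0.559 and 0.575 kb, and none in MCF-10A. These peaks had low scores, 55.4 and 89.5, at percentiles 0.352 and 9.01 of their lists.

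Among contigs with H3K4me3 in both lines, chr17_gl000205_random had 226 and 202 bp/Mb in the MDA-MB-231 lists and 370 and 366 bp/Mb in the MCF-10A lists (log2 ratio −0.76, SE 0.0807, limma adjusted p = 0.00226). Part of this was a region from 110170 to 112073 found only in MCF-10A, with scores of 1378 and 2598, the highest-ranked of its class. Both MCF-10A lists of H3K9me2 also had a peak across it, and both of H3K27me3 overlapped its first part, with peaks ending at 110801 and 110937. No MDA-MB-231 list of these marks had a peak over it. chrUn_gl000228 had 71.5 and 74.4 bp/Mb in the MDA-MB-231 lists and 147 and 192 bp/Mb in the MCF-10A lists (log2 ratio −1.10, SE 0.149, limma adjusted p = 0.00455). chrUn_gl000223 had 261 and 284 bp/Mb in the MDA-MB-231 lists and 196 and 199 bp/Mb in the MCF-10A lists (log2 ratio 0.44, SE 0.0807, limma adjusted p = 0.0118), and carried no other mark.

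The remaining H3K4me3 calls were on chrUn_gl000217, with 91.0 and 92.5 bp/Mb in the MDA-MB-231 lists and 54.9 and 39.7 bp/Mb in the MCF-10A lists (limma adjusted p = 0.0166), on chrUn_gl000221 (log2 ratio −0.74, limma adjusted p = 0.0284) and on chr7_gl000195_random (log2 ratio −0.35, limma adjusted p = 0.04). The call on chrUn_gl000221 was lost without any 1 of the 4 libraries, at limma adjusted p = 0.124 to 0.236. The call on chr7_gl000195_random was lost without MDA-MB-231 replicate 2, MCF-10A replicate 1 or MCF-10A replicate 2, at limma adjusted p = 0.0904, 0.108 and 0.0878, and also with unscaled coverage (limma adjusted p = 0.0866) and with a pseudocount of 1 (limma adjusted p = 0.0546). Copy number of the contigs was not measured, so a gain or loss of DNA and a difference in the marks cannot be told apart. The numbers of contigs called changed by over 1.5 times without single libraries: those higher in MCF-10A for H3K4me3 numbered 2 without MCF-10A replicate 1 or 2. For H3K27me3 those higher in MCF-10A numbered 8 and 9 without MDA-MB-231 replicates 1 and 2, and 3 and 2 without MCF-10A replicates 1 and 2. For H3K9me2, calls in the direction of MDA-MB-231 came to 3 and 2 when its replicates 1 and 2 were left out and to 3 when MCF-10A replicate 1 was. Those higher in MCF-10A for H3K9me2 numbered 6 without MDA-MB-231 replicate 1 and 0 without MCF-10A replicate 1 or 2. Those higher in MDA-MB-231 for H3K27me3 numbered 1 without MDA-MB-231 replicate 1 or MCF-10A replicate 1 and 0 without MCF-10A replicate 2. Leaving out a replicate also removes contigs that are then covered in only 1 list. These counts include contigs listed at 0 in 1 line. The shares of all features called under the same omissions are not given here, so nothing is read from the counts.

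**Figure D3:**
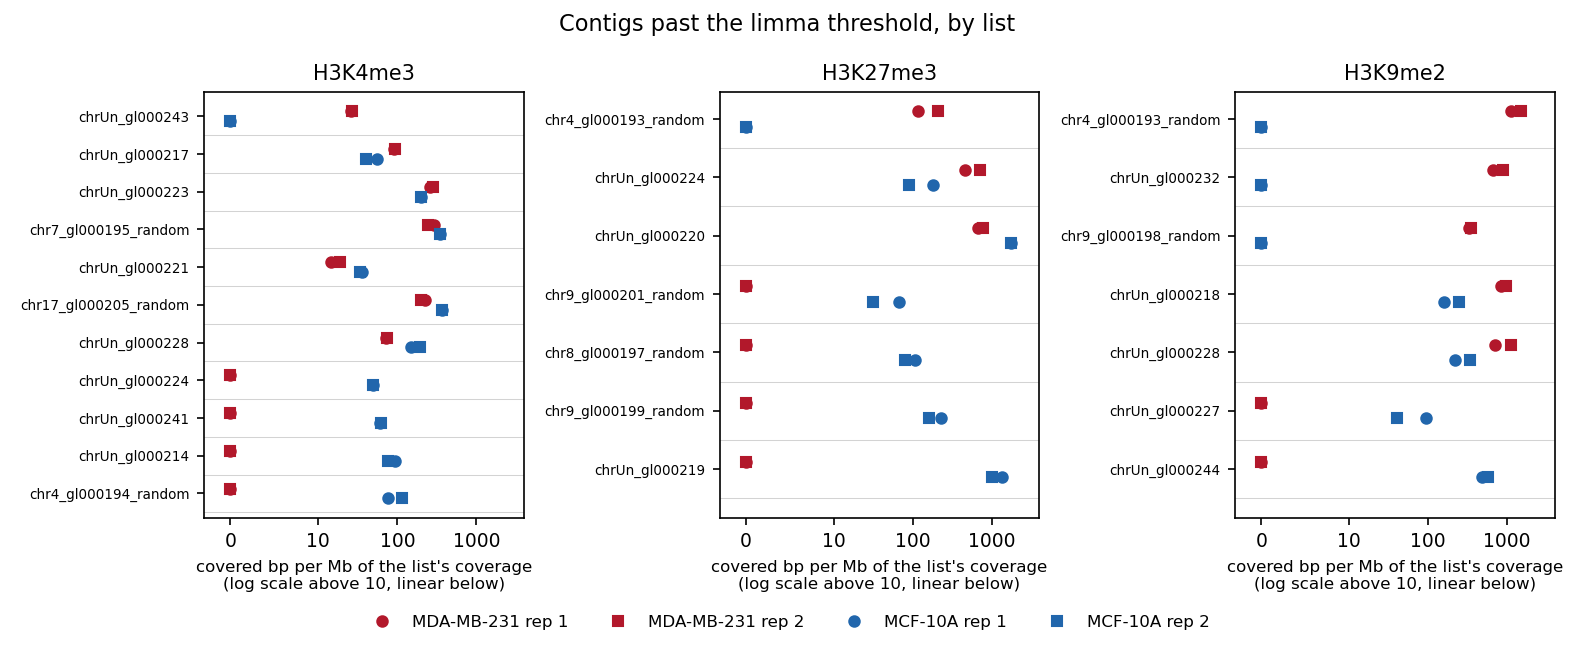
Covered bp per Mb of a list's coverage (x axis, logarithmic above 10 and linear below) on the contigs past the limma threshold for each mark, with MDA-MB-231 (red) above MCF-10A (blue) in each row and 1 point per list. For H3K9me2 the points of chr4_gl000193_random lie at 1126 and 1494 bp/Mb in MDA-MB-231 and at 0 in MCF-10A, and those of chrUn_gl000244 lie at 0 in MDA-MB-231 and at 476 and 567 bp/Mb in MCF-10A.

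chrUn_gl000220 had the most covered bases of all contigs, 216 kb summed over the 12 lists. H3K4me3 was found in all 4 lists near the first peaks, from 6608 to 8727 in MDA-MB-231 replicate 2 and from 6413 to 8586 in MCF-10A replicate 2. Its scores there were 895 and 700 in MDA-MB-231 and 3100 in both MCF-10A lists, a value that many H3K4me3 peaks share. The repressive marks lay mostly between that region and about 97 kb. The region of highest rank with H3K9me2 in all 4 lists on any contig was there, from 9991 to 23107, and H3K27me3 overlapped it in all 4 lists. A second stretch, from 95045 to 97298, held H3K27me3 in both MCF-10A lists and in neither MDA-MB-231 list, with H3K9me2 peaks over it in all 4 lists. H3K4me3 peaks of all 4 lists overlapped only its end. They started at 97111 and 96773 in MDA-MB-231 and at 97064 and 96841 in MCF-10A.

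On chrUn_gl000220 the replicates of H3K4me3 differed more than the lines. Coverage was 3.93 and 14.3 kb in MDA-MB-231 replicates 1 and 2, and 4.85 and 19.8 kb in MCF-10A replicates 1 and 2. The excess in the second replicates came from wide peaks of low rank that neither first replicate had. In MDA-MB-231 replicate 2 they ran from 101613 to 108369 and from 148091 to 151860, with scores of 96.4 and 79.4. In MCF-10A replicate 2 they ran from 101578 to 107964 and from 108990 to 116819, with scores of 94.3 and 337. H3K9me2 differed between the replicates of MDA-MB-231, with 23.7 and 4.90 kb, against 26.1 and 24.2 kb in MCF-10A.

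**Figure D4:**
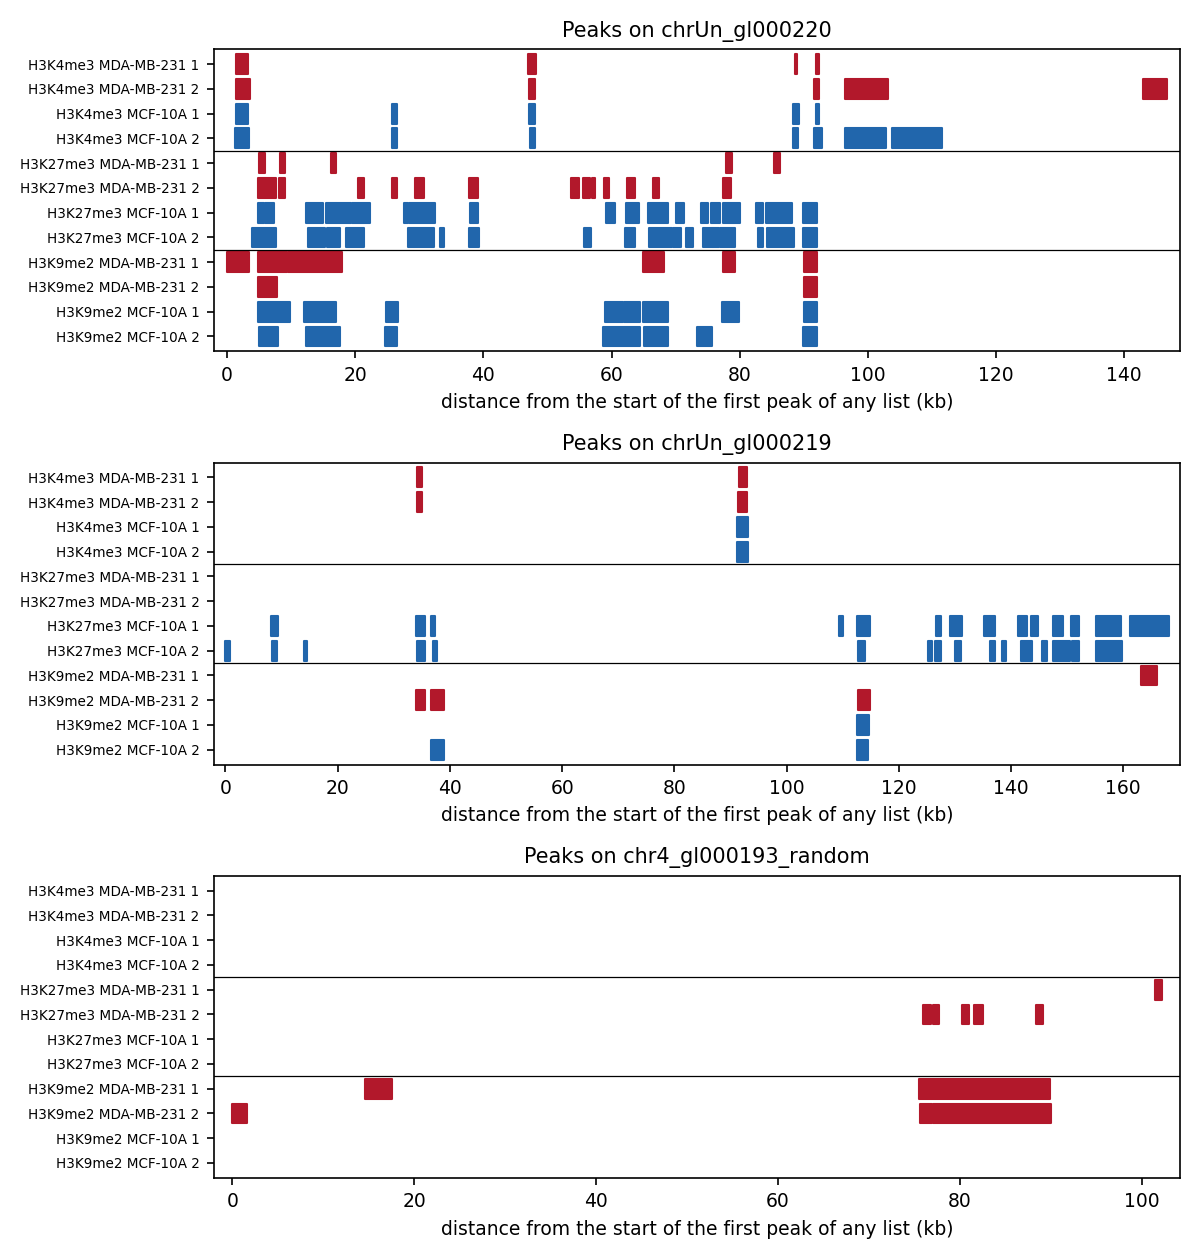
Peaks of the 12 lists (rows, MDA-MB-231 in red above MCF-10A in blue within each mark, numbers are replicates) on 3 contigs, drawn to scale by distance in kb from the start of the first peak of any list. The wide H3K4me3 peaks on the right of chrUn_gl000220 are in the second replicates only, H3K27me3 of chrUn_gl000219 is in MCF-10A only, and the H3K9me2 block of chr4_gl000193_random is in MDA-MB-231 only.

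Other contigs with peaks in many lists held both overlapping and separate marks. chr7_gl000195_random had 3 H3K4me3 regions in all 4 lists, among them 85574 to 87407, the highest-ranked H3K4me3 region found in every list on any contig, with scores of 938 and 1052 in MDA-MB-231 and 2673 and 3100 in MCF-10A. Its peaks stood at percentiles 51.7 and 49.5 in the MDA-MB-231 lists and 84.9 and 84.9 in the MCF-10A lists. No peak of another mark overlapped it, whereas on the same contig an H3K9me2 peak of MCF-10A replicate 1 from 32773 to 34973 overlapped an H3K4me3 peak from 29986 to 33850. At the start of the same contig, from 71 to 1714, H3K27me3 was called in all 4 lists of that mark, with scores of 76.7 and 227 in MDA-MB-231 and 336 and 117 in MCF-10A. On chr1_gl000192_random, H3K27me3 gave 6 and 8 peaks in MDA-MB-231 against 32 and 36 in MCF-10A, covering 4.14 and 3.68 kb against 21.5 and 24.0 kb (limma adjusted p = 0.136). In MCF-10A replicate 1, H3K9me2 from 527492 to 528840 lay over H3K27me3 from 527578 to 528279 there. chr17_gl000204_random carried no H3K4me3, and H3K27me3 in all 4 lists, with 7 and 20 peaks in MDA-MB-231 against 14 and 15 in MCF-10A (limma adjusted p = 0.0526). Its single region with H3K9me2 in all 4 lists, from 65202 to 67092, overlapped no H3K27me3 peak, while an H3K9me2 peak of MDA-MB-231 replicate 2 from 53340 to 54764 did overlap one.

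Peaks were next merged into regions across the 4 lists of a mark where they overlapped by at least 1 bp. For H3K4me3, 22 of 55 contig regions (40%) were in all 4 lists, against 68.5% of regions on chromosomes 1 to 22 and X. For H3K27me3, 2 of 179 contig regions were found only in both MDA-MB-231 lists and 43 (24.0%, exact 95% interval 18.0 to 31.0%) only in both MCF-10A lists, against 2.99% and 11.1% on the chromosomes, while 8 (4.47%) were in all 4, against 1.78% of all regions of the mark. For H3K9me2, 8 of 70 contig regions were found only in both MDA-MB-231 lists (11.4%, interval 5.07 to 21.3%) and 9 only in both MCF-10A lists (12.9%, interval 6.05 to 23%), against 9.12% and 23.4% on the chromosomes, while 6 (8.57%) were in all 4, against 5.31% of all regions of the mark. Over all regions, contigs included, the shares of these classes were 68.4% for H3K4me3 in all lists, 2.99% and 11.2% for the H3K27me3 classes, and 9.13% and 23.4% for the H3K9me2 classes. For H3K4me3, 6 contig regions were found only in MDA-MB-231 and 9 only in MCF-10A, against 6.28% and 5.94% of all regions. Regions in 1 list only made up 53.6% of H3K27me3 contig regions, against 72.5% on the chromosomes. For H3K9me2 they made up 40%, against 52.4%, and for H3K4me3 23.6%, against 12.6%. The class shares above were not adjusted for this difference, so they do not measure line specificity alone. Region counts carry no test. With a list left out, each class sets its condition on fewer lists, so a rise in its count is built in. The shares on the chromosomes under the same omissions are not given here. Without MDA-MB-231 replicate 1 or 2 the H3K27me3 regions found only in MDA-MB-231 numbered 28 or 5, and without MCF-10A replicate 1 or 2 those found only in MCF-10A numbered 89 or 83. Without MDA-MB-231 replicate 1 or 2, H3K9me2 regions found only in MDA-MB-231 numbered 17 or 20, and H3K27me3 regions in all remaining lists numbered 16 without MDA-MB-231 replicate 1. H3K9me2 regions found only in MCF-10A numbered 14, 16 and 14 without MDA-MB-231 replicate 1, MCF-10A replicate 1 and MCF-10A replicate 2, and those in all remaining lists numbered 10 without the second replicate of either line. H3K4me3 regions found only in MCF-10A numbered 20 without MCF-10A replicate 1.

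Replicates overlapped on contigs to a degree that differed by mark. The Jaccard index (shared bases over all covered bases) of the 2 replicates of H3K4me3 was 0.591 in MDA-MB-231 and 0.593 in MCF-10A on contigs, against 0.800 and 0.806 on chromosomes 1 to 22 and X. Without chrUn_gl000220 these contig values were 0.746 and 0.755. For H3K27me3 the index on contigs was 0.129 in MDA-MB-231 and 0.448 in MCF-10A, against 0.0957 and 0.259 on the chromosomes. For H3K9me2 it was 0.380 and 0.507 on contigs, against 0.355 and 0.435. It was thus lower on contigs for H3K4me3 and higher in the 4 groups of the repressive marks. Over the 6 groups the mean difference was −0.0172, with an exact sign-flip permutation p = 0.938, two-sided.

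H3K4me3 peaks on contigs were narrow and of low rank, and those of the repressive marks were not. The median width of H3K4me3 peaks was 923 and 919 bp in MDA-MB-231 and 899 and 921 bp in MCF-10A on contigs, against 1209, 1246, 1207 and 1239 bp on the chromosomes in the same order of lists. The median of their score percentiles within a list was 29.6 and 28 in MDA-MB-231 and 23.1 and 27 in MCF-10A, below 50 in all 4. H3K9me2 contig peaks had median percentiles of 56.3 and 56.0 in MDA-MB-231 and 55.0 and 64.9 in MCF-10A, and median widths of 3047 and 1921 bp in MDA-MB-231 and 2187 and 2422 bp in MCF-10A. On the chromosomes the H3K9me2 widths were 2199 and 1871 bp in MDA-MB-231 and 1606 and 1577 bp in MCF-10A. For H3K27me3 the percentiles were 46.2 and 56.5 in MDA-MB-231 and 69.7 and 55.6 in MCF-10A. Pooled over the 12 lists the marks offset each other, and neither the percentile (mean −2.66 points from 50) nor the width (mean log2 ratio 0.10) passed a two-sided exact sign-flip permutation test (p = 0.578 and 0.363). Within 1 mark, 4 lists allow no p below 0.125, which H3K4me3 gave for both measures. The lists share lines and contigs and are not independent samples.

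**Figure D5:**
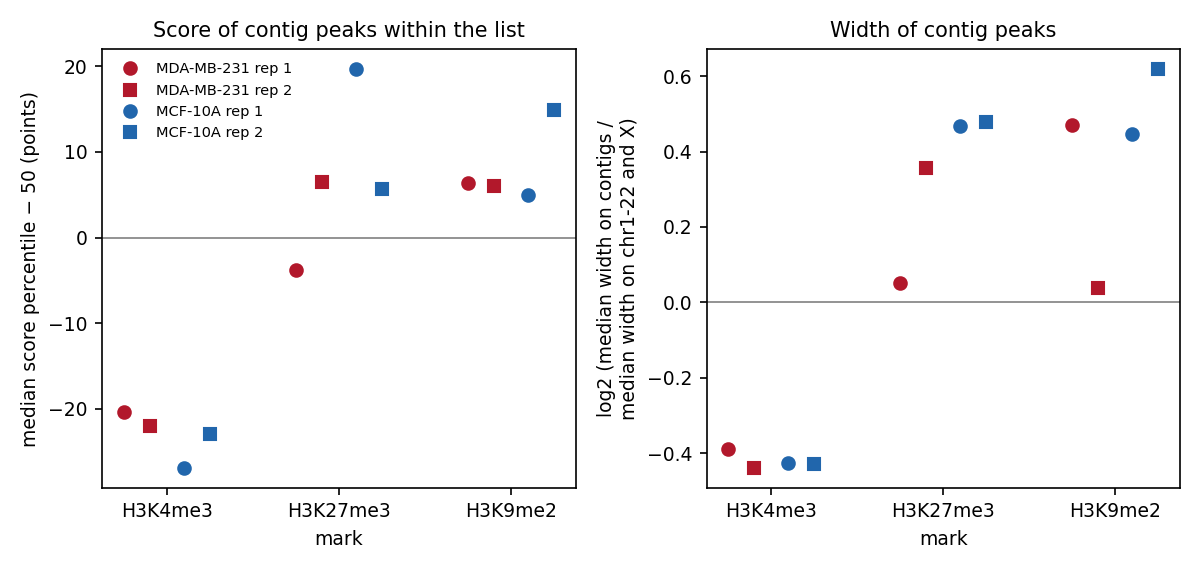
Median score percentile of contig peaks within their list, minus 50 (left), and log2 ratio of median peak width on contigs over chromosomes 1 to 22 and X (right), for each list by mark, with MDA-MB-231 in red left of MCF-10A in blue, circles for replicate 1 and squares for replicate 2. All 4 H3K4me3 lists lie below 0 in both panels, and all 4 H3K9me2 lists lie above 0.

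Contig peaks overlapped at least 1 other mark more often than peaks on the chromosomes did, though not for every pair of marks. The share was taken as the percent of a list's peaks that overlapped, by at least 1 bp, bases called for another mark in both replicates of the same line. Of the H3K9me2 contig peaks, 5 of 43 (11.6%) and 5 of 32 (15.6%) did so in MDA-MB-231, and 14 of 32 (43.8%) and 12 of 36 (33.3%) in MCF-10A. On chromosomes 1 to 22 and X the H3K9me2 shares were 11.4% and 11.4% in MDA-MB-231 and 8.53% and 8.25% in MCF-10A. In MCF-10A this was mostly overlap with H3K27me3, at 11 of 32 and 11 of 36 contig peaks. In MDA-MB-231 the overlap of H3K9me2 with H3K27me3 was lower on contigs, at 4.65% and 6.25% against 10.98% and 10.9%. MDA-MB-231 H3K4me3 contig peaks overlapped H3K27me3 at 0% in both lists, against 0.362% and 0.414% on the chromosomes. In MDA-MB-231 replicate 1, H3K27me3 contig peaks overlapped H3K4me3 at 0%, against 0.968%. For every other pair and list the overlap was higher on contigs. H3K4me3 contig peaks had shares of 8.82% and 10.8% in MDA-MB-231 and 12.8% and 8.51% in MCF-10A, against 0.519%, 0.556%, 2.76% and 3.47% on the chromosomes in the same order. H3K27me3 contig peaks had shares of 9.09% and 13.4% in MDA-MB-231 and 13.7% and 11.5% in MCF-10A, against 8.32%, 6.64%, 4.49% and 4.28%. The contig share was higher in 12 of 12 lists, by a mean of 10.2 percentage points (SD 10.1). A two-sided exact sign-flip permutation test gave p = 0.000488, the smallest that 12 lists can give. The lists share lines and contigs, and an overlap can count for the lists of both marks, so they are not independent samples. Over the means of the 6 mark and line groups the exact sign-flip permutation p was 0.03125, and these means share contigs too. The comparison was added after the data were seen. It rested on chrUn_gl000220: without this contig the mean difference was 4.35 points (exact permutation p = 0.0596). With peaks scoring under 100 left out it was 3.23 points (exact permutation p = 0.483). Peak width moved with this measure for the repressive marks, whose contig peaks had the higher median widths in all 8 lists, and not for H3K4me3, whose contig peaks were narrower. Its part in the overlap was not tested.

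No peak of any list lay on the alternative haplotypes of chromosomes 4, 6 and 17. In the parts of those chromosomes that such haplotypes double, peaks were called in the lists. The window of chromosome 6 from 28 to 34 Mb, which holds the major histocompatibility complex, had 157 to 185 H3K4me3 peaks, 122 to 389 H3K27me3 peaks and 34 to 71 H3K9me2 peaks per list. The window of chromosome 17 from 43 to 45 Mb had 27 to 36, 36 to 114 and 7 to 14 peaks of these marks per list. The window of chromosome 4 from 69 to 70 Mb had at most 2 peaks in any list. The sources used here do not state whether the haplotypes were among the sequences that reads were matched to.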

How the data were processed

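Each of the 12 deposited lists gives a peak's sequence name, start, end, name and score. The score is the authors' own value for a peak. Its scale is unknown, every deposited score was 50 or more, and it was used to order or filter peaks inside 1 list. Per the submitters' processing notes the build was hg19 and the tools included bedtools, MACS 1.4, Bowtie2 and CASAVA 1.6, with no roles or settings. Lists are per replicate; use of the inputs as controls is not given. No list held overlapping peaks. Coordinates are printed counting from 1.

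Computations used Python 3.11.15, NumPy 2.4.6, SciPy 1.17.1, pandas 2.3.3, matplotlib 3.10.9, R 4.3.3 and limma 3.58.1. Members, contigs and tests were chosen with earlier results of these data known. Single values per list were compared by two-sided exact permutation. For limma (trend, empirical Bayes), covered bp per Mb of a list's coverage plus a pseudocount of 10 was log2-transformed, for features covered in at least 2 of 4 lists; this scale understates changes of low features, and contigs listed at 0 in 1 line get no fold. The step was tested on simulated data. There it missed 2-fold and many larger changes of H3K27me3 and H3K9me2, and made false calls for H3K9me2 above the nominal share. Chromosome Y was left out of these fits. Named were contigs with at least 2 marks in both replicates of a line, contigs past the limma threshold, those found in 1 line alone, and the 3 highest-ranked regions per mark and class, of which a part is given. Intervals are exact Clopper-Pearson intervals for counting error.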

Additional observations from a re-analysis of the deposited data

Results flagged for a closer look

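The share of peaks on contigs moved in opposite directions between the lines for the repressive marks, which drew attention because every list of each mark followed its own direction. It was higher in MDA-MB-231 for H3K9me2 (0.694% and 0.630% against 0.299% and 0.403% in MCF-10A) and lower for H3K27me3 (0.259% and 0.219% against 0.403% and 0.420% in MCF-10A). The line differences of H3K9me2 and H3K27me3 lay 0.483 percentage points apart, a difference that was not tested. The H3K9me2 lists of MDA-MB-231 and the H3K27me3 list of MDA-MB-231 replicate 1 were shorter than the MCF-10A lists, and the part of list length in this was not tested.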

How the results depend on the processing

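Leaving out the haplotypes changed nothing by construction, since they held no peak. The log2 ratio of peak number for H3K9me2 was 0.14 as reported and −0.11 with a score of at least 100, and ranged from −0.087 to 0.34 with 1 list left out. That of covered bases ranged from −0.22 to 0.65, and both lowest values were those without MDA-MB-231 replicate 1. Other line differences in number, bases and share kept their direction under every alternative run. The pooled score percentile of −2.66 was 7.01 for H3K27me3 alone and 8.06 for H3K9me2 alone, and the pooled width ratio was −0.42 for H3K4me3 alone. The replicate overlap turned to 0.0374 as a share of the shorter list's peaks and to 0.0194 without chrUn_gl000220. Co-occupancy was 8.41 points for H3K4me3 alone, 5.99 for H3K27me3 alone and 16.2 for H3K9me2 alone (exact permutation p = 0.125 each, the smallest of 4 lists), 4.35 without chrUn_gl000220, 3.23 with a score of at least 100, and 7.92 to 11.1 with 1 list left out.

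A score of at least 100 left 2 H3K4me3 regions only in MDA-MB-231, 0, 22 and 0 H3K27me3 regions (only MDA-MB-231, only MCF-10A, all lists) and 3, 3 and 0 H3K9me2 regions. With peaks covering at least 50% of a region, 2 H3K27me3 regions were in all lists. Contigs with all 3 marks numbered 3 with a score of at least 100 and 3 with both lines required. With 1 list left out, regions only in MDA-MB-231, only in MCF-10A and in all lists ranged over 6 to 8, 9 to 20 and 22 to 24 for H3K4me3, 3 to 28, 46 to 89 and 8 to 16 for H3K27me3, and 10 to 20, 10 to 16 and 7 to 10 for H3K9me2. Each class then sets its condition on fewer lists, so a rise in these counts is built in.

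The counts of contigs called in this paragraph include contigs listed at 0 in 1 line. The share of all features called under each alternative is not given, so nothing is read from these counts. Contigs called higher in MDA-MB-231 for H3K27me3 numbered 0 with unscaled coverage, 0 with equal numbers of top-scoring peaks and 0 with a score of at least 100. For H3K9me2 those higher in MDA-MB-231 numbered 3 with a score of at least 100, and those higher in MCF-10A numbered 1 with unscaled coverage and 1 with equal numbers. With 1 list left out, calls higher in MDA-MB-231 and in MCF-10A ranged over 3 to 4 and 2 to 7 for H3K4me3, 0 to 2 and 2 to 9 for H3K27me3, and 2 to 4 and 0 to 6 for H3K9me2. Of the 10 contig calls with coverage in both lines, 4 passed under every alternative that could be fitted, and none changed direction. The replicate numbers are not stated to mark a shared day. Deviations of same-numbered replicates correlated at 0.117, 0.0225 and −0.0208 over all features for H3K4me3, H3K27me3 and H3K9me2. Over the 18, 14 and 18 contigs tested they correlated at 0.816, 0.176 and −0.502. For H3K4me3, chrUn_gl000220 shifted most between replicates 1 and 2 in both lines. It went from 182 to 659 bp/Mb in MDA-MB-231 and from 242 to 897 bp/Mb in MCF-10A, and the correlation without it is not given here. With the replicate number as a block, calls higher in MDA-MB-231 for H3K27me3 numbered 1 and those higher in MCF-10A for H3K4me3 numbered 9; the other counts were those reported. H3K4me3 on chrUn_gl000220 had a limma adjusted p of 0.0102 with the block and 0.715 without it. The blocked log2 ratios of peak number were −0.27, −1.64 and 0.13 for H3K4me3, H3K27me3 and H3K9me2. The cause of these changes was not tested, and unknown depth limits all counts of peaks.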

Other observations

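H3K9me2 regions on chrUn_gl000228 were evenly spaced, a pattern seen after the values were known and not tested. The 4 lists merged into 10 regions, of which 9 lay between 73133 and 111061, each 1391 to 1634 bp wide. Successive starts of these 9 were 3.25 to 3.41 kb apart in 5 cases and 6.57 to 6.74 kb apart in the other 3. MDA-MB-231 lists held 7 and 8 peaks on the contig, against 3 and 4 in MCF-10A. The regions starting at 96260 and 106226 were called in both MDA-MB-231 lists and in neither MCF-10A list. Those starting at 83121, 89692 and 102962 were called in MDA-MB-231 replicate 2 alone, and the one starting at 76384 in all 4 lists. No H3K4me3 or H3K27me3 list had more than 2 peaks between 73133 and 111061.

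On 5 contigs the first peak began close to the first base: chrUn_gl000237 at 3, chrUn_gl000224 at 10, chrUn_gl000235 at 11, chr7_gl000195_random at 71 and chr17_gl000205_random at 195. All peaks on chrUn_gl000235 lay within the first 2640 bases, with H3K9me2 over 2.55 and 2.63 kb in MDA-MB-231 against 0.998 and 0 kb in MCF-10A (limma adjusted p = 0.102).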
